A study of Mus musculus with 24 samples.

Results

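The genes described here are 10 regulators best known from astroglia and neural precursors, namely Sox9, Gli3, Msi1, Msi2, Sox2, Gli2, Nfia, Nfib, Hes5 and Notch1, measured by RNA-seq of mouse visual cortex. They are 10 of the 55414 genes in the count table, and all 10 were among the 14464 genes tested. Sox9, Gli3 and Msi1 were picked because their levels were low in the psilocybin-light group. Their differences are therefore given as a description with no test, except in psilocybin-dark against light. The other 7 were named for their pathway or family, not for a level, although with earlier results of these data known. They were tested in every comparison.

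The mice were C57BL/6J males, 8 weeks old, kept on a reversed light cycle and studied in their dark phase. Dark mice (libraries 1 to 6) received PBS and stayed in the dark, and light mice (libraries 13 to 18) received PBS and were placed in light for 2.5 h. Psilocybin-dark mice (libraries 7 to 12) and psilocybin-light mice (libraries 19 to 24) received psilocybin, a serotonergic psychedelic, at 5 mg/kg under the same 2 lighting conditions. Each group had 6 libraries made from dissected primary visual cortex, which is bulk tissue, so fewer cells of a type and less RNA per cell cannot be told apart. The group names above follow the headings of the study's supplementary tables. GEO's sample labels give each library the same drug and the same companions but the opposite lighting, so that libraries 1 to 6 are light there and libraries 19 to 24 are psilocybin in the dark. The comparisons of libraries hold under either naming, whereas the words light and dark depend on it. The sign of the interaction of light and psilocybin also depends on the naming.

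Sox9 and Sox2 are HMG-box transcription factors, Sox2 of neural precursors and mature astrocytes, and Sox9 of the switch from neuron to glia production, after which it marks astrocytes. Nfia and Nfib encode nuclear factor I proteins, which act with Sox9 in gliogenesis and are also made by many neurons. Gli2 and Gli3 are the zinc finger transcription factors at the end of the hedgehog pathway, Gli2 mostly an activator and Gli3 mostly a repressor. In that pathway the ligand binds Patched, which releases Smoothened. Notch1 is the receptor of a cell contact pathway whose cleaved intracellular part joins the DNA-binding protein RBPJ and switches on targets such as Hes5, a repressor that holds precursors undifferentiated. Msi1 and Msi2, the Musashi proteins, bind RNA and restrain translation of targets that include the Notch inhibitor Numb.

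On GRCm39, the build named in the study's methods (the sample labels name mm10), Sox9 lies at chr11:112673009-112678586 on the plus strand, Gli3 at chr13:15637809-15904611 (plus), Msi1 at chr5:115567419-115593757 (plus) and Msi2 at chr11:88230208-88609339 (minus). Sox2 lies at chr3:34704554-34706610 (plus), Gli2 at chr1:118761858-118982598 (minus) and Notch1 at chr2:26347915-26406675 (minus). Nfia at chr4:97660971-98007111 (plus), Nfib at chr4:82208410-82623987 (minus) and Hes5 at chr4:155045373-155046828 (plus) share chromosome 4. The values are counts over each gene's exons. Antisense genes overlap the exons of Sox2 over 1233 bases, of Notch1 over 1996 bases (0610009E02Rik), of Sox9 over 542 bases, of Gli3 over 513 bases and of Hes5 over 440 of its 1370 exon bases, and the sources used here do not state whether strand was used in counting, so reads of such pairs cannot be told apart.

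Because some of the 10 genes stand at the end of the Notch or hedgehog pathway, 3 promoters are shown, those of the Notch target Hes5 and of the hedgehog effectors Gli2 and Gli3. They are the 250 bases before the start site in RefSeq on GRCm38.p6 (the mm10 assembly), 5′ to 3′ on the gene's strand, and 7 of the 10 genes had such an entry. Capitals mark, in Hes5, the RBPJ core TGGGAA on either strand and, in Gli2, the GLI core ACCACCC on either strand.
Hes5: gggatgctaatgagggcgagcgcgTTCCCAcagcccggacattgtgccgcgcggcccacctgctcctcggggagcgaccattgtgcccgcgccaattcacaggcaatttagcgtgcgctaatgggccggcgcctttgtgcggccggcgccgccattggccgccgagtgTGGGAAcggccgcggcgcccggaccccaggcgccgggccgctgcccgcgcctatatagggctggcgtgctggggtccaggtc
Gli2: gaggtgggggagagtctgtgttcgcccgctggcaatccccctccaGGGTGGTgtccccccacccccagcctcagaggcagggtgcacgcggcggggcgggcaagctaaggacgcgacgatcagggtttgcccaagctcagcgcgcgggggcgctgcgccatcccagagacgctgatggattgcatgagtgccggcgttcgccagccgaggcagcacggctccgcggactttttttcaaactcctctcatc
Gli3: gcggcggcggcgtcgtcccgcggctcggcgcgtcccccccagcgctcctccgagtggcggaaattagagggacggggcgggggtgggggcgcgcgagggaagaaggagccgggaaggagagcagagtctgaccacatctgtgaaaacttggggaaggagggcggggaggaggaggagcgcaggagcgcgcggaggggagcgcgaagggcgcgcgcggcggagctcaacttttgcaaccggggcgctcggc
The Hes5 window (chr4:154960673-154960922, plus) held 2 RBPJ cores, and 21.6% of 32851 mouse windows of this length held at least 1. The Gli2 window (chr1:119053620-119053869, minus) held 1 GLI core, which 3.9% of windows held, and the Gli3 window (chr13:15463473-15463722, plus) held neither motif. An NFI half-site (TTGGC, found in 41.5% of windows) and a SOX core (ACAAAG, 16.5%) occurred in the Sox2 and Hes5 windows and not in those of Gli2, Gli3, Notch1, Nfia or Msi2. These are letter matches in a short window and not binding sites.

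Library totals ran from 13552516 to 17906994 counts. Libraries 1, 6, 12 and 18 stood apart from the rest. The summed level of 8 cerebellum markers, among them Cbln1, Gabra6 and Zic1, was 24472 normalised counts in dark library 1, 51976 in dark library 6, 23926 in psilocybin-dark library 12 and 14862 in light library 18, against 416 to 2456 in the other 20 libraries. The 8 cortical glutamatergic neuron markers summed to 30738 and 39529 in libraries 1 and 6 and to 68401 to 97979 in the rest. Hippocampus markers summed to 1068 to 5518 in the dark group and to 399 to 756 in the other groups. Many results below are therefore given with and without libraries 1 and 6, or libraries 1, 6, 12 and 18. Others are given with all libraries only, and a value given once does not show that it holds without them. The high hippocampus markers were in all 6 dark libraries, so leaving out libraries does not remove them from comparisons with dark. The part of neighbouring tissue in the results was not tested.

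Per kilobase of exon, the scale on which levels of different genes can be compared, Sox2 was the most abundant of the 10 genes in every group (mean of 324 normalised counts per kilobase in dark and 263 in psilocybin-light). Nfib (168 and 73.5), Msi2 (122 and 79.9) and Sox9 (113 and 68.0) came next in dark mice. Gli3 (12.1 and 5.87) and Gli2 (9.49 and 7.27) were the scarcest, with raw counts as low as 48 and 32 in a library, so their values carry the most counting error.

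Sox9, the glial Sox factor, had a lowest, median and highest normalised count of 387, 491 and 532 in dark, 421, 461 and 487 in psilocybin-dark, 297, 430 and 532 in light, and 258, 279 and 317 in psilocybin-light. All 6 psilocybin-light mice lay below every dark and every psilocybin-dark mouse, and they overlapped the light group at 1 light mouse. The group means ranked from dark (472 ± 65.0, SD, n = 6), through psilocybin-dark (458 ± 24.0) and light (421 ± 76.9) to psilocybin-light (284 ± 21.3), and the first 3 overlapped throughout. As a description of the choice, the psilocybin-light level was 0.60 of the dark level (log2 fold change -0.73, and -0.73 without libraries 1, 6, 12 and 18), 0.62 of psilocybin-dark and 0.67 of light. Between psilocybin-dark and light, a comparison that holds no psilocybin-light library, Sox9 differed by 0.12 on the log2 scale (95% interval -0.09 to 0.33, adjusted p = 0.671, edgeR).

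Sox2, its relative of the precursor and astrocyte state, had a lowest, median and highest value of 581, 672 and 708 in dark, 529, 575 and 638 in psilocybin-dark, 554, 625 and 810 in light, and 461, 546 and 601 in psilocybin-light. The psilocybin-light range touched that of all 3 other groups. Sox2 was 18.8% lower in psilocybin-light than in dark (log2 fold change -0.30, SE 0.08, adjusted p = 0.00560), and 17.6% lower than in light, which did not pass (adjusted p = 0.143). Psilocybin-dark and psilocybin-light mice differed by -0.09 (interval -0.26 to 0.08).

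**Figure D1:**
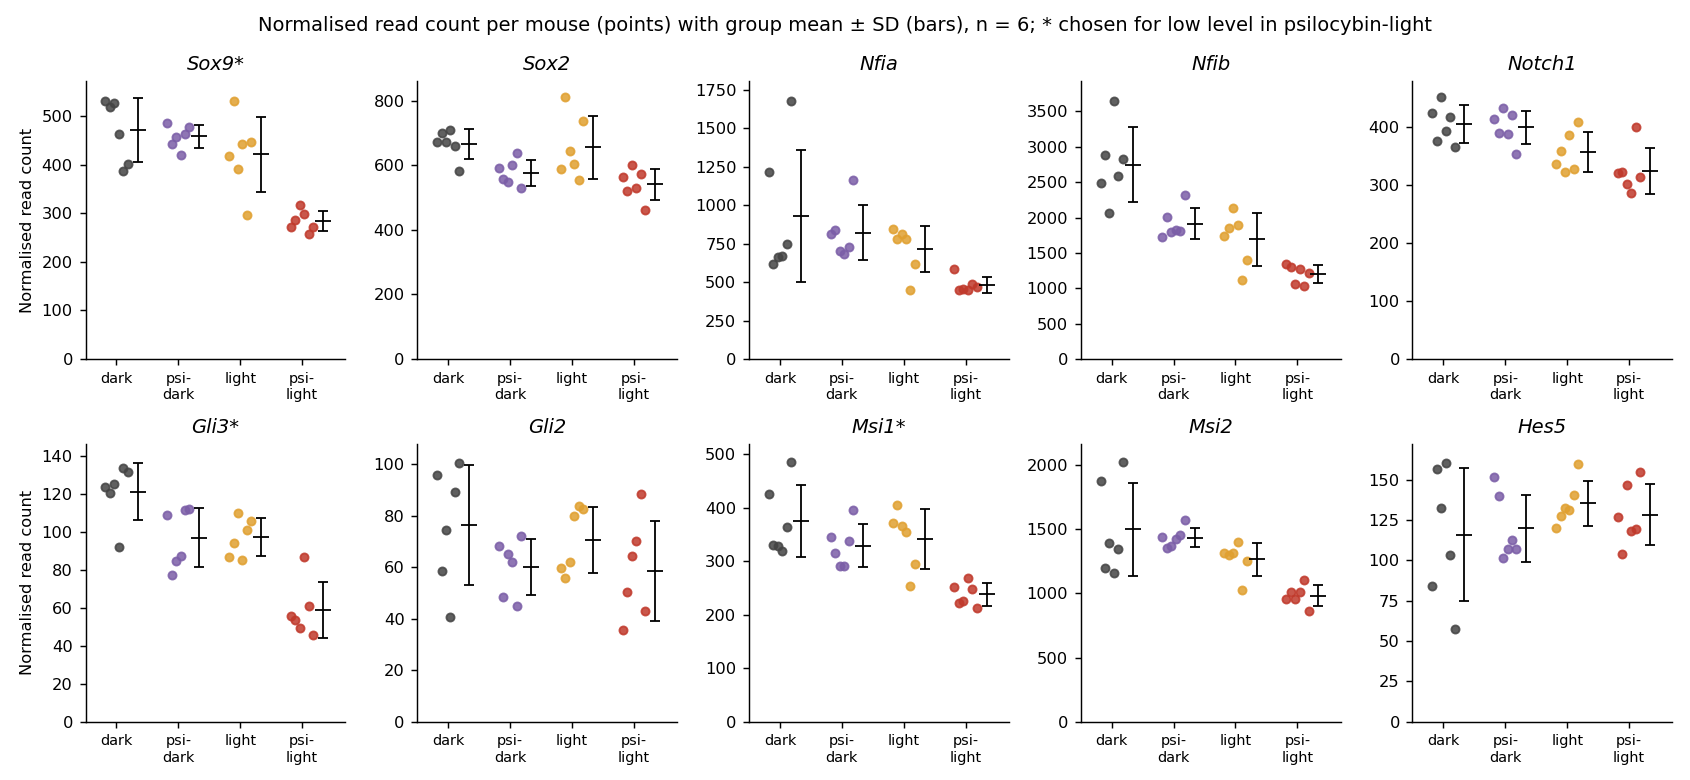
Normalised read count of each of the 10 genes (y axis, from 0) in each mouse (points), by group, with the group mean and SD (n = 6). An asterisk marks the 3 genes chosen for low psilocybin-light levels. The psilocybin-light mice lie below all dark mice for Sox9, Gli3, Msi1, Msi2, Nfia and Nfib, while Hes5 and Gli2 overlap in all groups.

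Of the 7 genes not chosen by level, the NFI genes had the largest falls in psilocybin-light against dark. Nfib had a lowest, median and highest value of 2070, 2704 and 3649 in dark, 1730, 1815 and 2317 in psilocybin-dark, 1120, 1797 and 2139 in light, and 1032, 1248 and 1337 in psilocybin-light. Psilocybin-light mice did not overlap dark or psilocybin-dark mice, and 1 light mouse reached into their range. Nfib fell by 56.2% in psilocybin-light against dark (log2 fold change -1.19, SE 0.13, adjusted p = 9.84e-07), by 38.5% in light against dark (-0.70, adjusted p = 0.000387) and by 30.5% in psilocybin-dark against dark (-0.52, adjusted p = 0.00587). It was the only one of the 7 called in all 3 comparisons with dark. Without libraries 1, 6, 12 and 18 the Nfib difference between psilocybin-light and dark was -1.21, and that between light and dark was -0.67. That step does not remove the hippocampus markers, which were high in every dark library. Dark library 4 had the highest Nfib value (3649) and the highest hippocampus marker sum (5518). Dark library 6, with the lowest dark hippocampus sum (1068) but the highest cerebellum marker sum (51976), stood at 2823. The other dark libraries stood at 2070 (library 3, hippocampus sum 1931), 2489 (library 1, 3221), 2585 (library 5, 2399) and 2885 (library 2, 3302). The part of hippocampal tissue in the Nfib differences was not tested.

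Nfia had a lowest, median and highest value of 615, 706 and 1675 in dark, 684, 770 and 1163 in psilocybin-dark, 448, 781 and 846 in light, and 446, 463 and 585 in psilocybin-light. The dark group was the widest, because libraries 1 and 6 stood at 1217 and 1675 while its other 4 mice stood at 615 to 744. Nfia was 48.3% lower in psilocybin-light than in dark (log2 fold change -0.95, SE 0.21, adjusted p = 0.00127). Without libraries 1 and 6 the difference shrank to -0.47 (adjusted p = 0.0148), and without libraries 1, 6, 12 and 18 it was -0.47 (adjusted p = 0.00376). The light against dark difference of -0.38 (adjusted p = 0.176) turned to 0.10 without libraries 1 and 6.

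Gli3, the hedgehog repressor, had a lowest, median and highest value of 92.1, 124 and 134 in dark, 77.1, 98.1 and 112 in psilocybin-dark, 85.3, 97.8 and 110 in light, and 45.8, 54.7 and 86.5 in psilocybin-light. The psilocybin-light mice lay below all dark mice, and 1 of them, at 86.5, reached into the light and psilocybin-dark ranges. Psilocybin-dark (96.9 ± 15.6, SD, n = 6) and light (97.2 ± 10.0) had similar means, with a tested difference of -0.00 on the log2 scale (interval -0.28 to 0.27, adjusted p = 0.996). As a description, the psilocybin-light level was 0.48 of dark (log2 fold change -1.05), 0.61 of psilocybin-dark and 0.60 of light, and the difference from dark was -0.998 without libraries 1 and 6. With all libraries, psilocybin-dark and light each stood at 0.80 of dark, also with no test.

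Gli2, the activator, ran from 40.8 to 101 in dark, 45.0 to 72.1 in psilocybin-dark, 55.7 to 83.7 in light and 35.7 to 88.3 in psilocybin-light. No pair of groups separated, and no comparison called it in edgeR. Its psilocybin-light against dark difference was -0.38 with an interval of -0.83 to 0.06 (adjusted p = 0.165), which holds a difference of the size measured for Msi2. Without dark library 4, whose value of 40.8 was the lowest of its group, it passed at -0.51 (adjusted p = 0.0480).

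Msi1 had a lowest, median and highest value of 320, 347 and 486 in dark, 291, 326 and 395 in psilocybin-dark, 253, 360 and 406 in light, and 213, 238 and 269 in psilocybin-light. Psilocybin-light mice lay below every dark and psilocybin-dark mouse and met the light group at 1 light mouse. As a description, the psilocybin-light level was 0.63 of dark (log2 fold change -0.66), 0.72 of psilocybin-dark and 0.70 of light. Libraries 1 and 6 held the highest Msi1 values (427 and 486), and without them the psilocybin-light difference from dark was -0.48. With all libraries, psilocybin-dark stood at 0.88 and light at 0.91 of dark, also with no test.

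Msi2, the other Musashi gene, had a lowest, median and highest value of 1158, 1371 and 2025 in dark, 1357, 1430 and 1573 in psilocybin-dark, 1025, 1306 and 1400 in light, and 862, 983 and 1101 in psilocybin-light. Psilocybin-light mice lay below all dark and psilocybin-dark mice and overlapped 1 light mouse. Msi2 fell by 34.5% in psilocybin-light against dark (log2 fold change -0.61, SE 0.11, adjusted p = 0.000167) and by 31.6% against psilocybin-dark (-0.55, adjusted p = 0.00437). Libraries 1 and 6 stood at 1875 and 2025, and without them the difference from dark was -0.37 (adjusted p = 0.000463).

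Notch1, the receptor, had a lowest, median and highest value of 366, 405 and 453 in dark, 353, 403 and 433 in psilocybin-dark, 323, 348 and 410 in light, and 286, 318 and 401 in psilocybin-light. A single psilocybin-light mouse, library 23 at 401, overlapped the dark group. Notch1 was 19.8% lower in psilocybin-light than in dark (log2 fold change -0.32, SE 0.08, adjusted p = 0.00235) and 18.8% lower than in psilocybin-dark (-0.30, adjusted p = 0.0207). Its target Hes5 ran from 57.6 to 160 in dark, 101 to 152 in psilocybin-dark, 120 to 160 in light and 104 to 154 in psilocybin-light, and was called in no comparison. The Hes5 difference between psilocybin-light and dark was 0.15 (interval -0.22 to 0.53, adjusted p = 0.539), and -0.10 without libraries 1 and 6.

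Across the 7 genes not chosen by level, 5 fell in psilocybin-light against dark (Msi2, Sox2, Nfia, Nfib and Notch1) and none rose, where 38.4% of all genes tested were called, 21.0% lower and 17.4% higher. The median log2 difference of the 7 was -0.38, against -0.02 over all genes tested. Because the 7 were named with earlier results of these data known, their counts are set beside these shares as a description. The same 5 genes were called without libraries 1 and 6, and without libraries 1, 6, 12 and 18. Those fits called 6193 and 6816 genes, against 5551 with all libraries. All 6 psilocybin-light mice lay below all 6 dark mice for 3 of these 7 (Msi2, Nfia and Nfib), where 7.56% of all genes separated in this way. The 3 chosen genes separated too, which their choice by level leads to. In light against dark and in psilocybin-dark against dark, 1 of 7 was called (Nfib in both), where 31.9% (16.5% lower, 15.4% higher) and 24.7% (12.8% lower, 11.9% higher) of all genes were called. Leaving out 1 library at a time added Msi2 (without 2 or 4) or Notch1 (without 18 or 23) to light against dark and Sox2 (without 6 or 14) to psilocybin-dark against dark. No gene of the 10 separated from dark without overlap in either comparison, where 4.41% and 2.45% of all genes lay lower without overlap.

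Against psilocybin-dark, a comparison in which the psilocybin dose was shared and lighting differed, 4 of 7 were lower in psilocybin-light (Msi2, Nfia, Nfib and Notch1), where 6.38% of all genes were called, 3.78% lower and 2.60% higher. Nfia was 41.4% lower (log2 fold change -0.77, SE 0.21, adjusted p = 0.0314) and Nfib 37.0% lower (-0.67, SE 0.13, adjusted p = 0.00420). Psilocybin-light mice lay below all psilocybin-dark mice for Msi2, Nfia and Nfib of the 7, where 3.80% of all genes separated in this way. Sox9 and Msi1, chosen by level, did as well. The Nfia call was lost when any of libraries 7, 8, 12, 20, 21, 22, 23 or 24 was left out (highest adjusted p = 0.0739), and that of Notch1 without 9, 22 or 24 (highest adjusted p = 0.0542), and Nfia also missed with no filter on low counts (adjusted p = 0.0568), while Msi2 and Nfib passed with any single library left out. The same 4 were called without libraries 1, 6, 12 and 18, with Nfia at -0.63 (adjusted p = 0.00141), in a fit that called 2434 genes against 923 with all libraries. Genes with long exons were slightly lower in this comparison, with a median difference of 0.10 in the shortest 10% of genes and -0.09 in the longest 10%. Exon length put Nfib at percentile 96, Notch1 at 93.1, Msi2 at 88.2 and Nfia at 84.7, and the part of length in their differences was not tested.

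**Figure D2:**
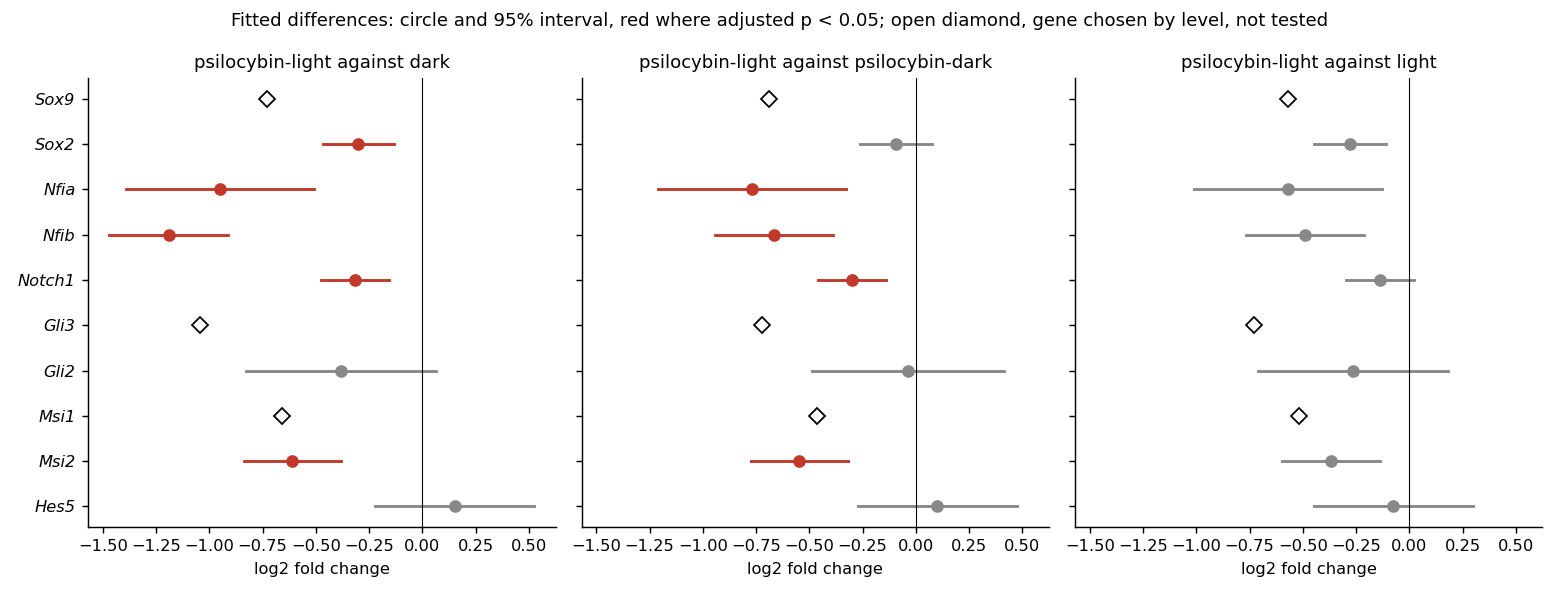
Fitted log2 fold change (x axis) of each gene in psilocybin-light against dark, psilocybin-dark and light. Circles with 95% intervals are the 7 tested genes, red where the adjusted p was under 0.05, and open diamonds are the 3 genes chosen by level, shown with no test. In the comparison with dark 5 circles are red, with psilocybin-dark 4 are red, and with light none is red.

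Against light, where both groups were in light and psilocybin differed, none of the 7 was called with edgeR, although 4 had an unadjusted p under 0.05 and DESeq2 called Nfib. Few genes were called at all in this comparison (0.608%, with 0.553% lower and 0.0553% higher), and for none of the 10 did all psilocybin-light mice lie below all light mice, as they did for 0.933% of all genes. The differences of the 7 had a median of -0.28, against -0.01 over all genes, and ran from -0.57 for Nfia (interval -1.01 to -0.13, adjusted p = 0.316) to -0.07 for Hes5 (interval -0.45 to 0.30). The result turned on the libraries that stood apart. Without libraries 1 and 6, which belong to neither group but share in the estimate of spread, Msi2 (-0.37, adjusted p = 0.00892) and Nfia (-0.57, adjusted p = 0.0396) passed at almost the same size. Without libraries 1, 6, 12 and 18, Nfib passed too (-0.53, adjusted p = 0.0389), as it did without light library 17 alone (-0.57, adjusted p = 0.0198). In this order the fits called 190, 331 and 155 genes, against 88 with all libraries.

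Psilocybin-dark and light, each with only 1 of the 2 exposures, were compared for all 10 genes, and edgeR called none of the 10 and DESeq2 none, where 0.456% of all genes were called (0.263% lower, 0.194% higher). Of the 7 genes not chosen by level, 2 had an unadjusted p under 0.05. The differences ran from -0.23 for Gli2 (interval -0.67 to 0.22) to 0.20 for Nfia (-0.24 to 0.64), so the intervals hold differences of moderate size. The interaction, which asks whether the psilocybin difference in light exceeded that in the dark, called none of the 7 with edgeR or DESeq2 and none at an unadjusted p under 0.05, where 8.75% of all genes were called (4.86% lower, 3.89% higher). Without libraries 1 and 6 it called Msi2 (-0.54, adjusted p = 0.000863) and Nfia (-0.86, adjusted p = 0.00505), both lower in psilocybin-light than the sum of the separate differences. Without library 6 alone it called Msi2 (-0.41, adjusted p = 0.0448). Many more genes were called for the interaction in these fits. There were 3078 without libraries 1 and 6 (1564 lower, 1514 higher) and 2092 without library 6, against 1266 with all libraries. The interaction estimates of Sox9, Gli3 and Msi1 were -0.53, -0.41 and -0.33, given with no test.

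**Figure D3:**
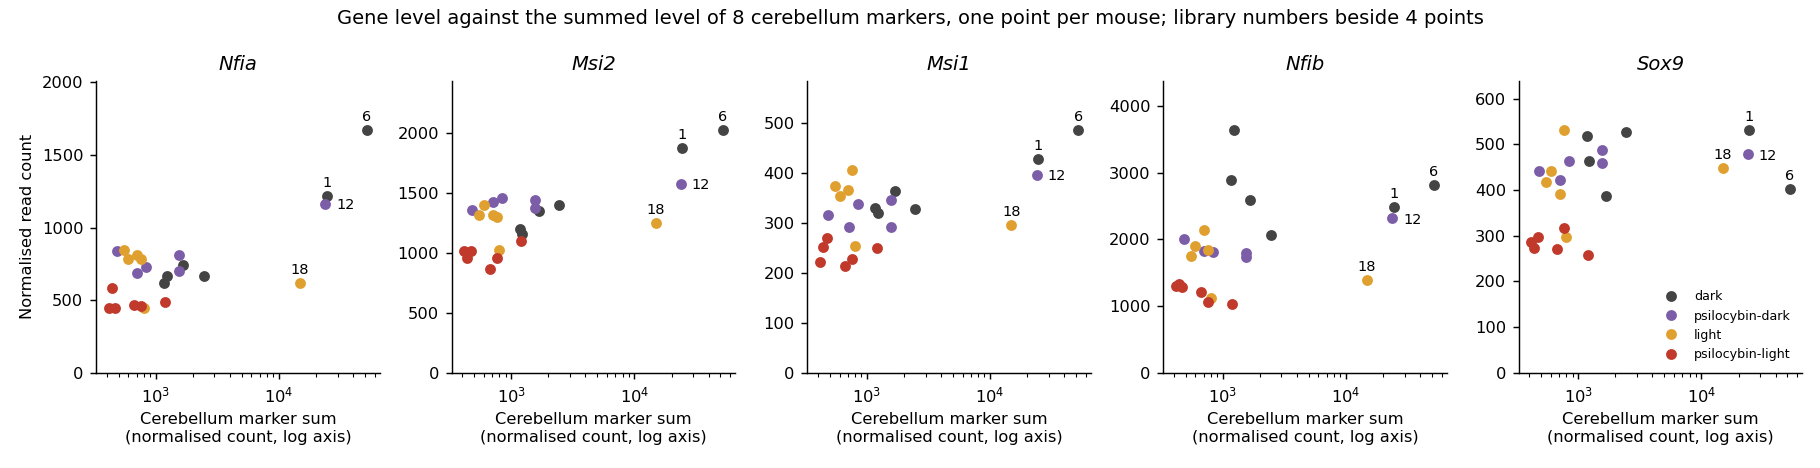
Normalised read count of 5 of the genes (y axis, from 0) against the summed level of 8 cerebellum markers (x axis, log scale), with a point for each mouse, coloured by group, and library numbers beside the 4 that stood apart. Libraries 1 and 6 carry the highest dark values of Nfia, Msi2 and Msi1. The highest dark value is in library 4 for Nfib and in library 1 for Sox9.

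Astrocyte markers were read as RNA of a cell type in which several of these genes are made, and their sum does not measure the number of astrocytes. The summed level of 20 markers ran from 162029 to 178149 normalised counts in dark, 153297 to 184085 in psilocybin-dark, 156975 to 174810 in light and 136613 to 164713 in psilocybin-light, with no marker at 0 in every library. In psilocybin-light against dark, 6 of the 20 were lower and 2 higher (21.0% lower and 17.4% higher over all genes tested), with a median of -0.18. Aqp4, the astrocyte water channel, fell by 52.4% (log2 fold change -1.07, adjusted p = 0.000366, and -0.65 without libraries 1 and 6) and the glutamate transporter Slc1a3 by 24.6% (-0.41, adjusted p = 0.00937, but 0.0800 without libraries 1 and 6). Aldh1l1, a folate enzyme used as a pan-astrocyte marker, rose by 29.4% (0.37, adjusted p = 3.14e-05). The filament gene Gfap (-0.46, adjusted p = 0.0696) and the glutamate transporter Slc1a2 (-0.20, adjusted p = 0.269) did not pass, although Slc1a2 did without libraries 1 and 6 (-0.40, adjusted p = 0.00592). With those libraries left out, 5 of the 20 were lower and 2 higher, where 3083 of all genes were lower and 3110 higher (shares given with the transcription factors below). With all libraries, 4 of the 20 were lower and 4 higher in light against dark (16.5% and 15.4% over all genes). Aqp4 stood at -0.78 and Aldh1l1 at 0.39 there. In psilocybin-dark against dark 5 were lower and 2 higher (12.8% and 11.9%), with Aqp4 at -0.62 and Aldh1l1 at 0.28. Astrocyte markers thus moved in both directions, and their part in the differences of the 10 genes was not tested.

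Per 1000 astrocyte marker counts, Sox9 stood at 2.80 ± 0.34 (SD, n = 6) in dark, 2.82 ± 0.15 in psilocybin-dark, 2.54 ± 0.46 in light and 1.96 ± 0.26 in psilocybin-light. The psilocybin-light mice again lay below all dark mice for Sox9 and Nfib on this scale, and overlapped them for the other 8 genes. The share of all genes that separated on this scale was not computed. Sox9 was chosen for its low psilocybin-light level, which leads to such a separation. The mean of the log2 ratios in psilocybin-light differed from that in dark by -0.97 for Nfib, -0.86 for Gli3 and -0.64 for Nfia. The differences were -0.52 for Sox9, -0.44 for Msi1 and -0.38 for Msi2. They were smaller for Gli2 (-0.18), Notch1 (-0.12) and Sox2 (-0.10), and Hes5 stood at 0.43. These ratios are descriptions and not levels per astrocyte, since the marker sum contains the changes of its own genes.

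**Figure D4:**
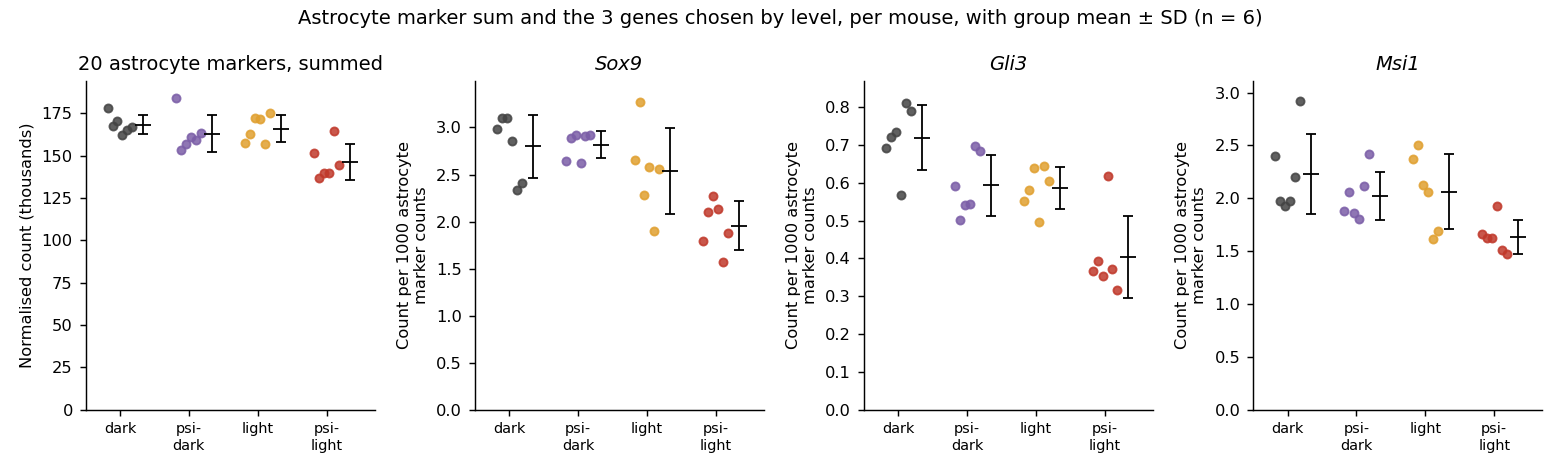
Summed level of 20 astrocyte markers (left panel, normalised counts in units of 1000) and the count of Sox9, Gli3 and Msi1 per 1000 of those marker counts, in each mouse (points) with group mean and SD (n = 6). The 3 genes were chosen for low psilocybin-light levels. For Sox9 the psilocybin-light mean of 1.96 lies below the dark mean of 2.80 with no overlap, and for Gli3 and Msi1 1 or more mice overlap.

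Of the other hedgehog genes, 17 of 21 were tested, and in psilocybin-light against dark 6 were lower and 3 higher (21.0% lower and 17.4% higher over all genes tested), with a median of -0.25. The receptor Ptch1, itself a target of the pathway, fell by 45.8% (log2 fold change -0.88, adjusted p = 0.00115, and -0.44 without libraries 1 and 6), the transducer Smo by 39.2% (-0.72, adjusted p = 0.00283), the receptor Gpr161, an inhibitor of the pathway, by 58.0% (-1.25, adjusted p = 0.00120), and Disp2 by 26.2% (-0.44, adjusted p = 3.99e-05). Evc2 (1.12, adjusted p = 0.000122) and Evc (0.38, adjusted p = 0.00157), which act on Smoothened at the cilium, and the ligand-release gene Disp1 (0.39, adjusted p = 0.0295, but 0.0995 without libraries 1 and 6) were higher. Gli1, the target that reads out the pathway, ran from 45.6 to 121 in dark and from 10.5 to 59.2 in psilocybin-light (-1.40, adjusted p = 0.0210, but -0.93 and 0.139 without libraries 1 and 6), and is named after its values were seen. Once libraries 1 and 6 were left out, the list had 4 lower and 4 higher of 16 tested and a median of 0.07, so its balance depended on those libraries. Over all genes that fit called 3083 lower and 3110 higher (shares given with the transcription factors below). With all libraries, 4 of the list were lower and 2 higher in light against dark (16.5% and 15.4% over all genes). In psilocybin-dark against dark 6 were lower and 3 higher (12.8% and 11.9%). Ptch1 was called lower in both (-0.68 in light and -0.64 in psilocybin-dark), as were Smo (-0.52 and -0.50), Gpr161 (-1.15 and -1.39) and Disp2 (-0.51 and -0.42). No hedgehog gene of the list was called in psilocybin-light against light or against psilocybin-dark, where 0.608% and 6.38% of all genes were called.

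All 31 other Notch pathway genes were tested, and in psilocybin-light against dark 10 were lower and 3 higher (21.0% lower and 17.4% higher over all genes tested), with a median of -0.08. The receptor protease Adam10 fell by 18.0% (log2 fold change -0.29, adjusted p = 3.23e-05), the ligand Dll1 by 32.5% (-0.57, adjusted p = 0.00301) and the modulator Dtx1 by 11.2% (-0.17, adjusted p = 0.00262). The coactivator Maml2 was lower (-0.91, adjusted p = 0.00440, but -0.45 and 0.0788 without libraries 1 and 6), while its relative Maml3 was higher (1.17, adjusted p = 0.00395). Numb, the Notch inhibitor and known Musashi target, rose by 33.3% in psilocybin-light (0.41, adjusted p = 0.000437), by 56.4% in light (0.65, adjusted p = 7.30e-06) and by 48.7% in psilocybin-dark (0.57, adjusted p = 4.69e-05), each against dark. Its interaction was -0.80 (adjusted p = 0.000880), so that its psilocybin-light level was below the sum of the separate rises. With libraries 1 and 6 left out, 7 of the list were lower and 6 higher, where 3083 of all genes were lower and 3110 higher (shares given with the transcription factors below). In light against dark 3 rose and 5 fell (15.4% higher and 16.5% lower over all genes), and in psilocybin-dark against dark 3 rose and 4 fell (11.9% and 12.8% over all genes). In psilocybin-light against psilocybin-dark, 6.38% of all genes were called and 3.78% were lower. Of the 31, only Mib1, an E3 ligase for Notch ligands, was called there (-0.32, adjusted p = 0.0232), and it is named after its values were seen.

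Of 26 other Sox, NFI and glial transcription factors, all tested, 9 were lower and 2 higher in psilocybin-light against dark (21.0% lower and 17.4% higher over all genes tested), with a median of -0.13. Zbtb20, a zinc finger factor of astrocytes and hippocampal neurons, fell by 62.5% (log2 fold change -1.41, adjusted p = 3.45e-06), from 986 to 2140 in dark to 428 to 617 in psilocybin-light, and by 41.6% against psilocybin-dark (-0.78, adjusted p = 0.00999). Sox1, the close relative of Sox2, fell by 40.7% (-0.75, adjusted p = 3.02e-05), Id4 by 35.7% (-0.64, adjusted p = 6.83e-05) and Hes6 by 37.6% (-0.68, adjusted p = 0.000486). Id2 rose by 32.7% (0.41, adjusted p = 0.000172) and the ETS factor Etv5 by 59.1% (0.67, adjusted p = 0.00195). With libraries 1 and 6 left out, 12 of the 26 were lower and 4 higher, where 43.4% of all genes were called and 21.6% were lower. Hippocampus markers were lower in the same comparison (5 of 6 tested, median -1.56), as were all 8 cerebellum markers and 4 of 5 oligodendrocyte precursor markers, while 4 of 8 cortical glutamatergic neuron markers (median 0.65) and 5 of 10 microglia markers (median 0.21) were higher. The part of these cell types and regions in the calls was not tested. With all libraries, 6 of the 26 were lower and 3 higher in light against dark (16.5% and 15.4% over all genes). In psilocybin-dark against dark 6 were lower and 2 higher (12.8% and 11.9%). Zbtb20 was called in both (-0.85 in light and -0.64 in psilocybin-dark), as were Sox1 (-0.52 and -0.58) and Id4 (-0.40 and -0.54). So were Hes6 (-0.72 and -0.74), Id2 (0.39 and 0.36) and Etv5 (0.75 and 0.96). In psilocybin-light against light, Sox21 was lower (-0.54, adjusted p = 0.0442), as was the astrocyte gap junction gene Gja1 (-0.49, adjusted p = 0.0133), and both are named after their values were seen.

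**Figure D5:**
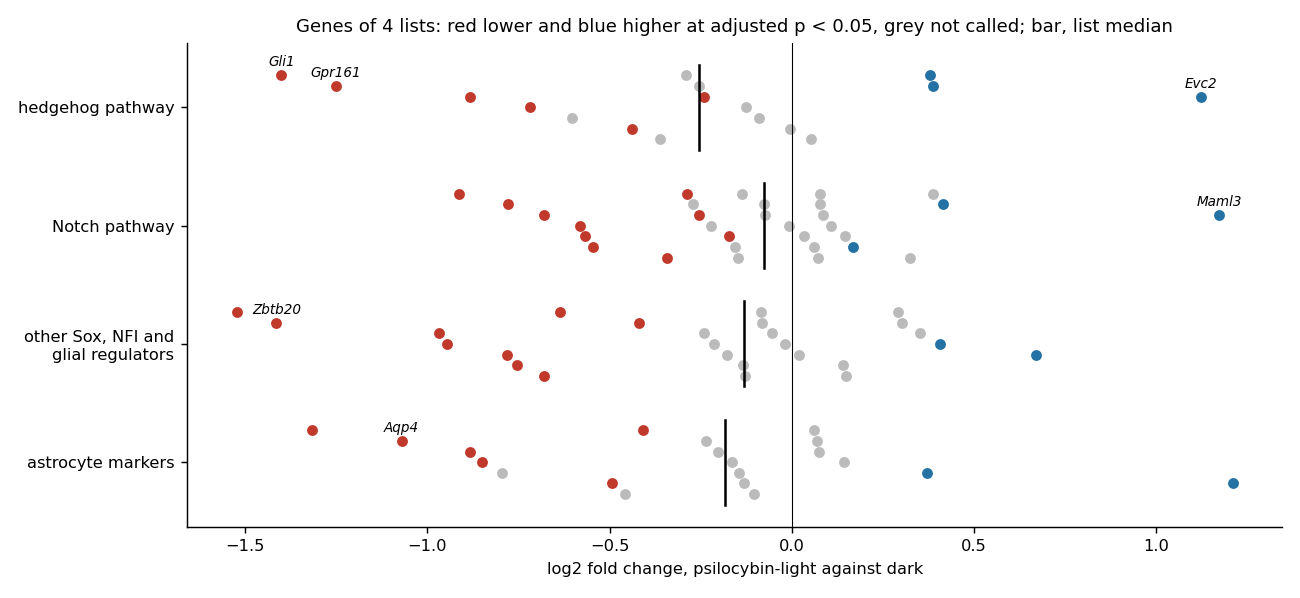
Log2 fold change in psilocybin-light against dark (x axis) of each tested gene of 4 lists, red where lower and blue where higher at an adjusted p under 0.05, grey otherwise, with a bar at each list's median. The 4 medians lie between -0.25 and -0.08, each list holds red and blue points, and the call of Gli1 did not hold without libraries 1 and 6.

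The genes whose log2 level followed Sox9 most closely over the 24 libraries were Zhx2 (Pearson r = 0.86), Ubfd1 (0.86), Klhl9 (0.85), 4833439L19Rik (0.85) and Pcyox1l (0.84). For Gli3 they were Gas2l3, Gm43668, Gja1 and Ubxn4 (each 0.84) and Arl14ep (0.83). For Msi1 they were Nfia (0.91), Msi2 (0.89), Elavl3 (0.89), Pggt1b (0.87) and Foxn3 (0.87), so that 2 of the 5 are among the 10 genes described. After group means were subtracted, Msi1 still followed Nfia (0.88) and Msi2 (0.80), Sox9 most resembled 2810459M11Rik (0.66) with Sox2 the fourth (0.59), and Gli3 most resembled Chkb (0.76). Over the 20 libraries without 1, 6, 12 and 18, with group means subtracted, Nfia was again first for Msi1 (0.79), and Chkb for Gli3 (0.84). These correlations share libraries, depth and group structure and describe only these data.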

How the data were processed

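RNA from the visual cortex of 24 mice was measured by polyA RNA-seq in 4 groups of 6 libraries. The deposited table holds raw counts per gene, which the authors made with cutadapt, STAR and HTSeq according to the labels and methods; the annotation release and the strand setting are not given in the sources used here. From these counts, genes reaching 30 counts in at least 1 library (14464 of 55414) were fitted over all 24 libraries with edgeR 4.0.16 (TMM, quasi-likelihood test, R 4.3.3). Adjusted p-values are Benjamini-Hochberg values over all genes tested, with calls at an adjusted p under 0.05, and intervals are 95%. Normalised read counts are counts per library scaled to 16058300, the mean TMM-adjusted library size. The common biological coefficient of variation was 0.182. No 2 libraries of a group agreed within sampling noise (lowest chi-square per degree of freedom of 3.02 over 60 pairs).

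The 10 genes and the gene lists were chosen with earlier results of these data known. Sox9, Gli3 and Msi1 were chosen for low psilocybin-light levels and were tested only in psilocybin-dark against light. From the hedgehog, Notch and transcription factor lists, up to 4 called genes per direction with the smallest p in psilocybin-light against dark were named, with Gfap, Aqp4, Slc1a2, Slc1a3 and Aldh1l1 of the astrocyte markers and the 5 genes most correlated (log2 CPM) with each of the chosen genes. A Notch pathway gene named by this rule is not reported here. The fitting code was tested on simulated data. Alternatives were DESeq2 1.42.0 with the study's settings, its size factors, other filters, the compared groups alone, the labels' light names, libraries left out singly, and libraries 1 and 6 left out. Leaving out libraries 1, 6, 12 and 18 was chosen after seeing the data. Gene positions came from GENCODE on GRCm39 and promoter windows from RefSeq on GRCm38.p6.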

Additional observations from a re-analysis of the deposited data

Results flagged for a closer look

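Each group of 6 was screened for a mouse set far apart from the rest (Dixon's criterion, 40 groups of values, in which chance gives about 1 in 20), and 4 values were found. Gli3 in dark library 4 stood at 92.1 normalised counts, below the other 5 dark mice at 121 to 134. Nfia in psilocybin-dark library 12 stood at 1163, above the others at 684 to 841, and this library had a cerebellum marker sum of 23926. Nfia in psilocybin-light library 19 stood at 585, above the others at 446 to 486. Notch1 in psilocybin-light library 23 stood at 401, above the others at 286 to 323, and without this library the Notch1 difference from dark was -0.39.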

How the results depend on the processing

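No paired analysis was possible because the library numbers run from 1 to 24 and no number occurs in more than 1 group. With the light names of the sample labels, the same libraries gave, for Nfib in light against dark, 0.70. Psilocybin-light against dark then held libraries 7 to 12 against 13 to 18, with Msi2 at 0.18, Nfia 0.20, Nfib 0.18 and Notch1 0.16. Psilocybin-light against psilocybin-dark turned to Msi2 0.55, Nfia 0.77, Nfib 0.67 and Notch1 0.30, and psilocybin-dark against light to Msi2 -0.61, Nfia -0.95, Nfib -1.19 and Notch1 -0.32. Genes called, with members of the 7 in brackets, were then 88 (0) in psilocybin-dark against dark, 66 (0) in psilocybin-light against dark, 3575 (1) in psilocybin-light against light and 5551 (5) in psilocybin-dark against light. The interaction kept 1266 (0) but turned in sign, with 703 higher and 563 lower, against 563 higher and 703 lower under the headings' names.

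Counts that moved by over 1.5 times were as follows. DESeq2 called 191 genes (1 of the 7) in psilocybin-light against light and 405 in psilocybin-dark against light. filterByExpr (15628 genes) gave 55 in psilocybin-light against light. No filter (31758 genes) gave 22 there, 463 (3, without Nfia at an adjusted p of 0.0568) in psilocybin-light against psilocybin-dark, 0 in psilocybin-dark against light and 759 for the interaction. The compared groups alone gave 3073 in light against dark, 1972 (2) in psilocybin-dark against dark, 58 (1) in psilocybin-light against light, 1688 in psilocybin-light against psilocybin-dark and 254 in psilocybin-dark against light, and no interaction can be fitted to 2 groups. Leaving out libraries 1 and 6 gave 2 of the 7 in psilocybin-dark against dark, 190 (2) in psilocybin-light against light, 1791 in psilocybin-light against psilocybin-dark, 688 in psilocybin-dark against light and 3078 (2) for the interaction. Without libraries 1, 6, 12 and 18 there were 2 of the 7 in light against dark, 5416 (2) in psilocybin-dark against dark, 331 (3), 2434, 852 and 3810 (2) in the same order. The cause was not tested.

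Leaving out each library in turn (24 fits) gave 3937 to 5010 genes (1 to 2 of the 7) in light against dark, 2751 to 4210 (1 to 2) in psilocybin-dark against dark and 4907 to 5782 (5 to 6) in psilocybin-light against dark. Psilocybin-light gave 9 to 155 (0 to 1) against light, lowest without library 19 and highest without 17, and 585 to 1249 (2 to 4) against psilocybin-dark. Psilocybin-dark against light gave 3 to 346 (0 to 0), lowest without library 15, and the interaction 834 to 2092 (0 to 1), highest without library 6. The 5 genes called in psilocybin-light against dark were called in all 24 of these fits.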
